A study of Brassica rapa subsp. pekinensis with 2 samples.

Results

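Pentatricopeptide repeat (PPR) proteins of the mitochondrion were described in Chinese cabbage (Brassica rapa subsp. pekinensis), in an anther library (‘Ant’) and a library of vegetative organs (‘Mix’). The members were the reference transcripts (class code =, an assembled transcript that matches an annotated one) whose description named both a pentatricopeptide repeat and the word mitochondrial. A total of 138 transcripts met this rule, out of 464 reference transcripts described as PPR and 34213 reference transcripts in all. The rule itself reads no measured value. Each description named an Arabidopsis locus or protein, and these loci are given below as the annotation of the Brassica gene.

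PPR proteins are RNA-binding proteins encoded in the nucleus and imported, in most cases, into mitochondria or chloroplasts. Their tandem helical repeats contact successive bases of an RNA strand, and in this way individual proteins direct the editing, splicing, end processing, stability or translation of particular organelle transcripts. Many of the mitochondrial messages they act on encode subunits of the respiratory chain. In anthers the family is known for its restorer-of-fertility members, which act on the mitochondrial transcripts that cause cytoplasmic male sterility in several crops, Brassica among them.

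Both libraries came from the double haploid line ‘FT’, which was obtained by microspore culture. Ant pooled anthers of different developmental stages from flower buds of plants grown from germinated seeds that were vernalized at 4 °C for 20 days, and Mix was whole seedlings with 4 true leaves (roots, stems and leaves together). The sample labels give the vernalization for both groups, whereas the study's methods give it for Ant alone, so organ, plant age and vernalization cannot be told apart. Each group was 1 library, so no difference below has a replicate behind it and no p-value was computed. In such bulk samples, fewer cells of a type and less RNA per cell cannot be told apart either.

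Summed estimated counts were 216371346 for Ant and 190816341 for Mix. A single 500 kb window on chromosome A06 held 2.07% of the Ant counts and 56.2% of the Mix counts, and the median transcript that reached 1 FPKM in both libraries had a log2 ratio of 0.54. Levels are given as FPKM, fragments scaled to transcript length and to the library total, and a log2 ratio is log2((FPKM Ant + 1)/(FPKM Mix + 1)), which understates the change of low transcripts. A ratio below 0.54 is called below the median transcript here, even where FPKM is higher in Ant. That median covers only transcripts with 1 FPKM in both libraries. Transcripts under 1 FPKM can fall below it through the added 1 FPKM alone. BraA09g032700.3C, for example, had a log2 ratio of 0.44 and a plain FPKM ratio of 5.93-fold. Marker descriptions fitted the labelled organs: all 67 photosystem and chlorophyll a-b binding transcripts had lower FPKM in Ant, and 41 of 51 transcripts described by oleosin-B, tapetal oleosin or pollen had higher FPKM in Ant.

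The mitochondrial PPR transcripts were low in both libraries. The median member had 0.73 FPKM in Ant and 0.39 in Mix, beside 0.88 in Ant and 0.57 in Mix for all reference transcripts. FPKM reached 1 for 56 members in Ant and for 31 in Mix, of which 28 did so in both. FPKM of at least 10 was found for 5 members in Ant and for 2 in Mix. Of the 34213 reference transcripts, 6299 reached 10 FPKM in Ant and 3779 in Mix, so these too were more in Ant. At 1 FPKM in a single library, no share over all reference transcripts was taken. Summed over members, FPKM was 289 in Ant and 146 in Mix. Over all reference transcripts the sum was 549403 in Ant and 249628 in Mix, so the higher sum in Ant was not particular to members. The 5 highest members gave 35.1% of the member sum in Ant and 34.6% in Mix. Thus a few transcripts carried much of the family's RNA in both libraries, and 79 of the 138 members stayed under 1 FPKM in both.

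Members held 0.0504% of the estimated counts of Ant (95% Wilson interval 0.0501% to 0.0507%) and 0.0269% of those of Mix (0.0267% to 0.0272%). The order of these shares depended on the A06 window. Without its counts, the share was 0.0515% in Ant and 0.0614% in Mix. These intervals cover counting error only.

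**Figure D1:**
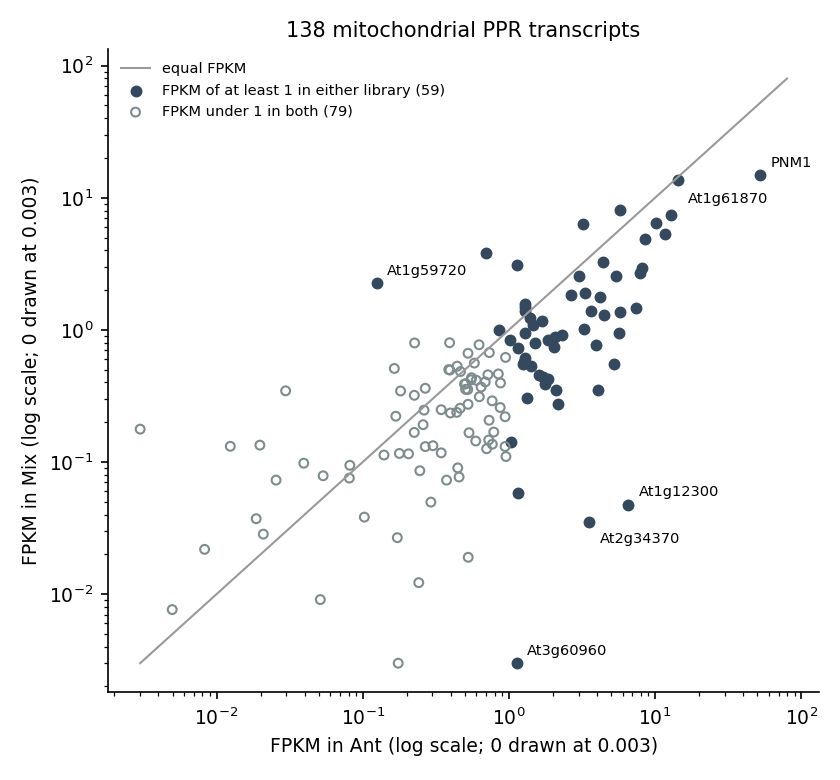
FPKM of the 138 mitochondrial PPR transcripts in Ant (x axis) and Mix (y axis), both on log scales, with values of 0 drawn at 0.003. Filled points are the 59 members that reached 1 FPKM in either library, open points the other 79, and the line marks equal FPKM. By the deposited FPKM, 104 members were higher in Ant, a count that depends on the scaling.

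By the deposited FPKM, more members were higher in Ant than in Mix. FPKM was higher in Ant for 104 of 138 members (75.4%), against 59.1% of all reference transcripts. This count depends on the scaling. With the A06 window left out of the totals, many small positive log2 ratios turned negative, as for BraA07g007830.3C (0.70 and then -0.09). Members and reference transcripts that reached 1 FPKM in either library are called expressed here. By this minimum 59 members were expressed (42.8%, against 58.2% of all reference transcripts), and 28 of these reached 1 FPKM in Ant alone, which by itself favours a higher value in Ant. The median log2 ratio was 0.70 over these 59 members and 0.62 over the 19909 expressed reference transcripts. Over all 138 members it was 0.26, against 0.11 over all reference transcripts. Relative to the median transcript the 59 members were centred near 0, at 0.17, and 36 of them (61.0%) were above it, against 51.9% of expressed reference transcripts. Over all 138 members, 45 (32.6%) were above the median transcript, against 33.5% of all reference transcripts, so this excess was not seen without the minimum. The added 1 FPKM pulls the ratios of members under 1 FPKM towards 0, which lowers this count.

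A log2 ratio above 2, the cutoff of the study without its p-value, was found for 3 of the 59 members (5.08%), while 21.2% of expressed reference transcripts passed it. No member had a log2 ratio below -2 (0 of 59), against 9.48% of reference transcripts. At a cutoff of 1, 18 members were higher in Ant (30.5%) against 41.0% of reference transcripts, and 2 were lower (3.39%) against 21.7%. The members thus fell short of the background share on both sides, and their ratios were closely packed. PPR transcripts with no named organelle shared this, as given below. The quartiles of the expressed members were 0.28 and 1.08, whereas those of expressed reference transcripts were -0.79 and 1.74.

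Adding 1 FPKM compresses the ratios of low transcripts, and the plain FPKM ratio was therefore also taken, for transcripts above a floor of 6 estimated counts in both libraries, a comparison that was added after the values were seen. Of the 130 members above the floor, 29 were over 4-fold higher in Ant (22.3%), close to the 24.3% of reference transcripts. On the other side, 5 members were over 4-fold lower in Ant (3.85%), against 14.8% of reference transcripts. The quartiles of the plain log2 ratio were 0.09 and 1.80 for members and -1.01 and 1.94 for reference transcripts. On this scale the share of strongly higher members was near the background and the share of strongly lower members remained under it. The median plain ratio was 1.77-fold for members and 1.44-fold for reference transcripts.

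**Figure D2:**
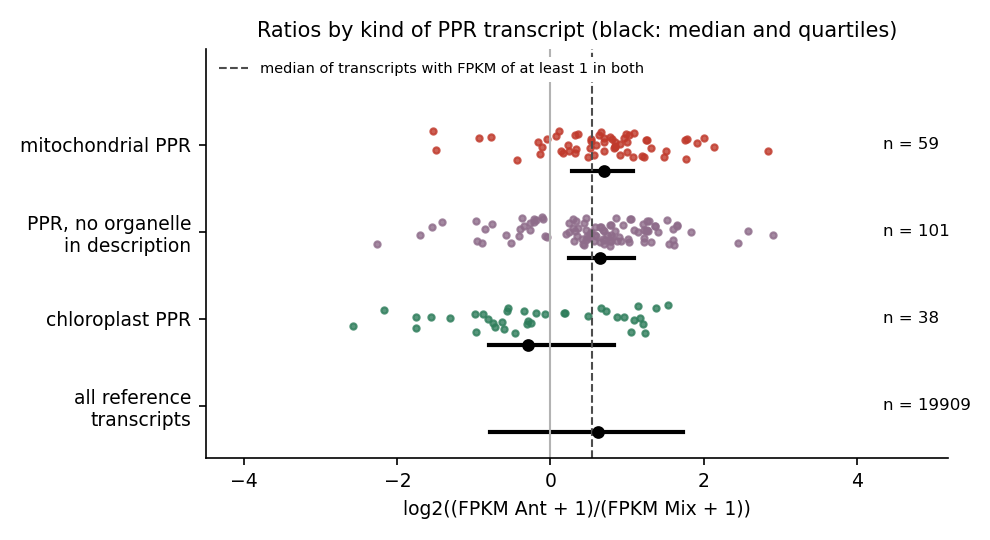
Log2 ratio of Ant over Mix (x axis) of expressed mitochondrial, unassigned and chloroplast PPR transcripts, 1 point per transcript, and of all reference transcripts as a summary. Black dots and bars are medians and quartiles, and the dashed line is the median transcript; the mitochondrial median was 0.70 and the chloroplast median -0.30.

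PPR transcripts described as chloroplast proteins were set beside the members, since they share the protein fold and differ in the organelle. Of 60 chloroplast transcripts, 26 had higher FPKM in Ant (43.3%), against 75.4% of the mitochondrial members. Their median log2 ratio was -0.30 over the 38 expressed ones. None of these had a log2 ratio above 2, and 2 were below -2. The 266 PPR transcripts whose description named no organelle lay close to the members, with 203 higher in Ant and a median of 0.65 over 101. Their ratios were as closely packed, with quartiles of 0.24 and 1.09, 3 above 2 and 1 below -2. By the plain ratio, 15.2% of them were over 4-fold higher in Ant and 3.2% over 4-fold lower. The chloroplast quartiles were wider apart, at -0.80 and 0.83. No test of these differences was possible with 1 library per group, and Mix contained leaf tissue rich in photosynthetic transcripts, whose part in the difference was not tested.

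The highest ratio of all members belonged to BraA09g060600.3C, annotated as At1g12300, on chromosome A09 from 42448295 to 42450106 (Brassica rapa v3.0), with 1 exon. It had 6.53 FPKM in Ant and 0.047 in Mix, from 2746 estimated counts in Ant and 20 in Mix, a log2 ratio of 2.85 and a plain ratio of 138-fold. In Arabidopsis this locus is counted among the restorer-of-fertility-like PPR genes. The next highest was BraA03g018060.3C (At2g34370, A03 from 8427944 to 8429386), at 3.53 FPKM in Ant and 0.035 in Mix. Its log2 ratio was 2.13 and its plain ratio 101-fold, resting on 1183 counts in Ant and 12 in Mix. These 2 transcripts were thus readily measured in anthers and close to the floor in the vegetative library.

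BraA03g031080.3C (At3g02650) was the last member above the cutoff, at 5.21 FPKM in Ant against 0.547 in Mix, a log2 ratio of 2.01. Just below the cutoff, BraA10g026200.3C (At5g12100) had 4.09 FPKM in Ant and 0.350 in Mix, a log2 ratio of 1.92 and a plain ratio of 11.7-fold. BraA09g040120.3C (At1g22960) had 5.68 FPKM in Ant and 0.944 in Mix, 6.02-fold. For these loci only the PPR annotation is given here, with no assigned target. Among the 10 members of highest ratio, BraA04g013760.3C (At5g41170) at 5.72 FPKM in Ant and 1.37 in Mix, and BraA09g012650.3C (At1g62680) at 2.17 in Ant and 0.274 in Mix, are again restorer-of-fertility-like by their Arabidopsis locus. All 10 stayed above 0 after centring on the median transcript, and also when the A06 window was left out of the totals or FPKM was rescaled to the same sum.

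A few members with little or no signal in Mix were masked by the pseudocount. BraA05g000880.3C (At3g60960) had 324 estimated counts in Ant and 0 in Mix, at least 53.7-fold higher against the floor, yet its log2 ratio was 1.09. BraA07g020120.3C (At5g40410) had 72 counts in Ant and 0 in Mix, at least 11.9-fold higher. BraA06g041870.3C (At5g46460) had 119 counts in Ant and 6 in Mix, at least 19.6-fold higher. BraA01g012580.3C (At4g21880), with 17 exons the member of most exons, had 316 counts in Ant and 12 in Mix, 27.7-fold higher by the plain ratio. These 4 were picked out after their values were seen, and all but BraA05g000880.3C stayed below 1 FPKM in Ant.

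**Figure D3:**
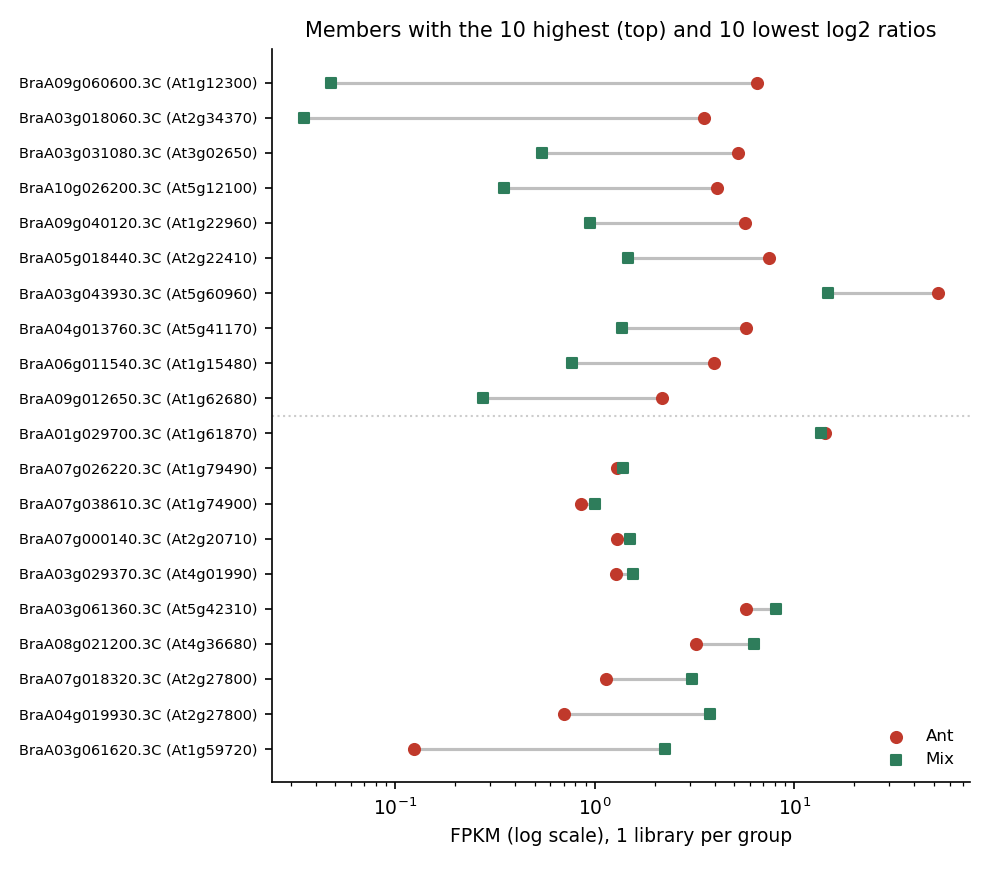
FPKM on a log scale (x axis) of the members with the 10 highest and the 10 lowest log2 ratios among the 59 expressed ones, with Ant as circles and Mix as squares, 1 library each. The top pair, At1g12300 and At2g34370, lie at 6.53 and 3.53 FPKM in Ant against 0.047 and 0.035 in Mix, whereas the lowest, At1g59720, lies at 0.124 in Ant and 2.26 in Mix.

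By the deposited FPKM, 34 of the 138 members were lower in Ant. This count depends on the scaling, as the order of the count shares did without the A06 window. The lowest ratio was that of BraA03g061620.3C (At1g59720, A03 from 33142827 to 33144698), with 0.124 FPKM in Ant and 2.26 in Mix, from 55 estimated counts in Ant and 974 in Mix. Its log2 ratio was -1.53, and its level was 18.1-fold lower in Ant. In Arabidopsis this locus is CRR28, which edits chloroplast transcripts, and the Brassica description names both organelles. BraA03g061360.3C (At5g42310), at 5.75 FPKM in Ant and 8.15 in Mix with a log2 ratio of -0.44, likewise corresponds to a protein known for the chloroplast in Arabidopsis, CRP1. Both counted as members by the wording of their descriptions alone.

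BraA04g019930.3C (At2g27800) had 0.70 FPKM in Ant and 3.80 in Mix, a log2 ratio of -1.50. BraA07g018320.3C, annotated with the same Arabidopsis locus, had 1.14 FPKM in Ant and 3.09 in Mix, a log2 ratio of -0.93. The third gene of that locus, BraA07g018340.3C, lay about level at 3.01 FPKM in Ant and 2.56 in Mix. Relative to the median transcript all 3 genes of this locus were lower in Ant, with a centred log2 ratio of -0.37 for BraA07g018340.3C, and they also were with the A06 window left out or FPKM at the same sum. BraA08g021200.3C (At4g36680) had 3.23 FPKM in Ant and 6.28 in Mix, a log2 ratio of -0.78. The remaining members of the lowest 10 had log2 ratios between -0.16 and 0.07 and FPKM between 0.856 and 14.3 in Ant.

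PNM1 was the most abundant member in both libraries. BraA03g043930.3C, described by this name (At5g60960, A03 from 22218178 to 22219725), stood at 52.6 FPKM in Ant and 14.8 in Mix, a log2 ratio of 1.76 that rested on 18874 counts in Ant and 5289 in Mix. It alone made up 18.2% of the summed FPKM of all members in Ant and 10.2% in Mix. In Arabidopsis PNM1 is found in both mitochondria and the nucleus, is bound to polysomes in the mitochondrion and is needed for embryo development. The gap to the next member was wide in Ant and small in Mix.

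That next member was BraA01g029700.3C (At1g61870), which corresponds to PPR336, a PPR protein associated with the mitochondrial ribosome in Arabidopsis. It had 14.3 FPKM in Ant and 13.6 in Mix, a plain ratio of 1.06-fold and a log2 ratio of 0.07, hence 0.47 below the median transcript. BraA07g007830.3C (At3g25210) had 12.8 FPKM in Ant and 7.46 in Mix. BraA10g023630.3C (At5g15980) had 11.7 FPKM in Ant and 5.35 in Mix. BraA02g017020.3C (At1g66345) had 10.2 FPKM in Ant against 6.39 in Mix, and with a centred log2 ratio of 0.06 it lay nearest to the median transcript among members with FPKM of at least 5 in both. Apart from PNM1, the abundant members thus differed by little more than 2-fold between the libraries.

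Members were then grouped by what their Arabidopsis locus is known to do. Of 56 loci with a known role that were listed, 19 had a member, through 20 transcripts, and FPKM was higher in Ant for 17 of these and for 87 of the 118 members on no list. RNA editing, the conversion of cytidine to uridine in organelle transcripts, was the largest group, with 12 members from 11 of 34 loci. FPKM was higher in Ant for 11 of the 12 (91.7%), against 75.4% of all members and 59.1% of all reference transcripts. A log2 ratio above 1 was found for 2 of the 12, against 13.0% of all members and 23.9% of all reference transcripts. None of the 5 expressed ones had a log2 ratio above 2, against 21.2% of expressed reference transcripts. The median over all 12 was 0.51, and over the 5 expressed ones it was 0.91. Some of these 5 reached 1 FPKM in Ant alone, which by itself favours a higher value in Ant. The median plain ratio over the 11 members above the floor was 2.92-fold. Above the median transcript were 6 of the 12, against 32.6% of all members and 33.5% of all reference transcripts.

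SLO1, which in Arabidopsis edits transcripts of complex I subunits, had the highest ratio of the editing group. Its Brassica member BraA05g018440.3C had 7.44 FPKM in Ant and 1.47 in Mix, a log2 ratio of 1.77. PPR596 (BraA07g025730.3C), which affects partial editing of the ribosomal protein transcript rps3 in Arabidopsis, had 7.84 FPKM in Ant and 2.68 in Mix, a log2 ratio of 1.26. MEF9 (BraA09g016090.3C), an editing factor of nad7, had 1.71 FPKM in Ant and 0.437 in Mix. COD1 (BraA05g010080.3C), whose Arabidopsis mutant lacks editing of cox2 and is impaired in complex IV, had 1.04 FPKM in Ant and 0.141 in Mix, 7.39-fold. MEF3 (BraA06g027910.3C), an editing factor of atp4, had 1.41 FPKM in Ant and 0.531 in Mix. Each of these 5 was above the median transcript.

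The other editing members were all below 1 FPKM in both libraries. REME1 (BraA06g038980.3C), which edits nad2 in Arabidopsis, had 0.728 FPKM in Ant and 0.147 in Mix. CWM2 (BraA09g032700.3C), an editing factor found through a cell wall maintenance mutant, had 0.456 FPKM in Ant against 0.077 in Mix. GRS1 (BraA01g005630.3C), MEF35 (BraA08g009690.3C) and MEF12 (BraA03g034030.3C), all site-specific editing factors in Arabidopsis, had log2 ratios between 0.07 and 0.20. The locus of MEF18, an editing factor of nad4, was represented by adjacent genes on A10. BraA10g021220.3C had 356 counts in Ant and 324 in Mix, whereas the short BraA10g021210.3C had 4 in Ant and 11 in Mix, too few to compare.

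The splicing group was mixed. MTL1 (BraA02g044550.3C), needed in Arabidopsis for translation of nad7 and for splicing of one of its introns, had 2.09 FPKM in Ant and 0.351 in Mix, a log2 ratio of 1.20 and a plain ratio of 5.97-fold. OTP43 (BraA07g038610.3C), needed for splicing of the first intron of nad1, had 288 estimated counts in Ant and 335 in Mix, a log2 ratio of -0.11. ABO5 (BraA05g017940.3C), needed for splicing of a nad2 intron, had 0 estimated counts in Ant and 80 in Mix, at least 13.4-fold lower, although an assembled isoform of the same gene was measured in both libraries, as given below. RPF2 (BraA01g021290.3C), which shapes the 5′ ends of nad9 and cox3 transcripts in Arabidopsis, had 0.523 FPKM in Ant and 0.354 in Mix. POCO1 (BraA06g011540.3C), known in Arabidopsis for an effect on flowering time, had 3.94 FPKM in Ant and 0.772 in Mix, a log2 ratio of 1.48 for the reference transcript and lower for the gene as a whole, as given below. PPR40 (BraA01g035620.3C), a protein associated with respiratory complex III, had 0.506 FPKM in Ant and 0.391 in Mix.

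**Figure D4:**
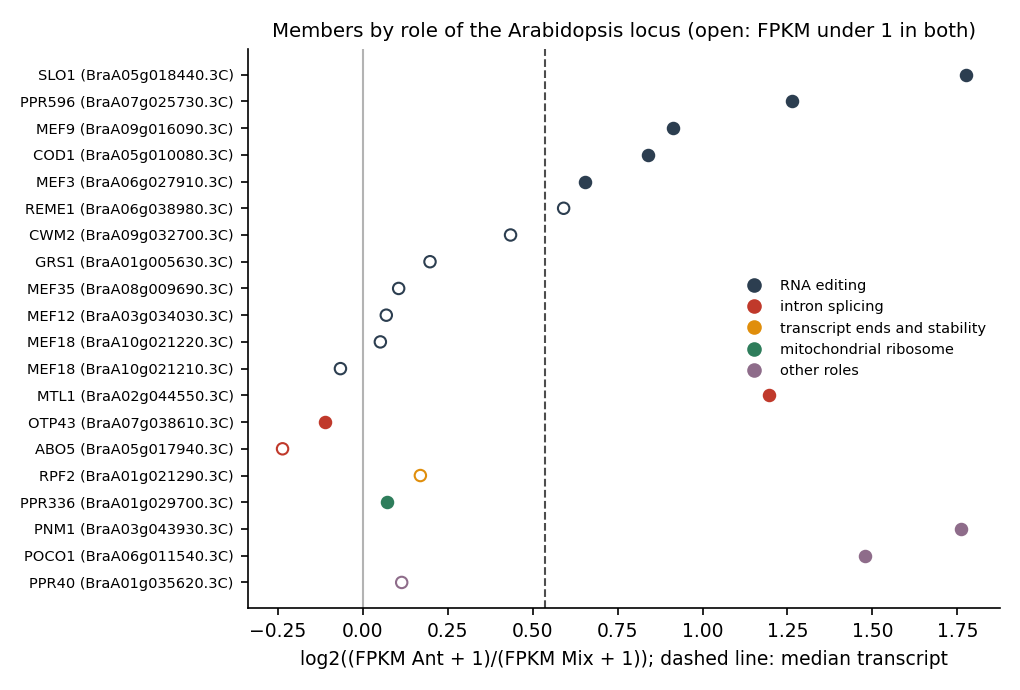
Log2 ratio of Ant over Mix (x axis) of the 20 members whose Arabidopsis locus has a listed role, named by that locus and coloured by role; filled points were expressed, and the dashed line is the median transcript at 0.54. SLO1 at 1.77 and PNM1 at 1.76 were highest and ABO5 at -0.24 was lowest.

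The restorer-of-fertility-like loci were listed only after the values had been seen, so their counts are a description. A total of 11 members came from 7 of 23 such loci. Of these, 9 had higher FPKM in Ant (81.8%), against 75.4% of all members and 59.1% of all reference transcripts. The highest was BraA09g060600.3C and the lowest was BraA08g030810.3C (At3g22470), with 24 counts in Ant and 83 in Mix and a log2 ratio of -0.55. Over the 5 expressed ones the median log2 ratio was 1.32, while over all 11 it was 0.24. Most of these 5 reached 1 FPKM in Ant alone, which by itself favours a higher value in Ant. A log2 ratio above 1 was found for 3 of the 11 (27.3%), against 13.0% of all 138 members and 23.9% of all reference transcripts.

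These genes are known to lie in clusters of near-identical copies, and members that shared an Arabidopsis locus could be compared. The 138 members named 122 loci, of which 14 had several members (30 members in all). In 9 of the 14 the members had the same direction. Log2 ratios differed by over 1 in 4 loci and by over 2 in 1, At1g12300. Its copies BraA09g060600.3C and BraA09g060610.3C lay side by side on A09, in a cluster of 3 members from 42434587 to 42453113. BraA09g060610.3C had 0.292 FPKM in Ant and 0.050 in Mix, 5.88-fold, so the copies were alike in Mix and far apart in Ant. How reads were shared between similar copies was not stated, and levels of single copies are uncertain for that reason.

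Structurally the members, like the other PPR transcripts, were long and mostly had 1 exon. Their median length was 1798.5 nt, against 1038 nt for all reference transcripts, and 109 of 138 (79.0%) had 1 exon, against 22.5%. The GO term mitochondrion was carried by 125 members (90.6%), against 9.85% of reference transcripts and 83.5% of PPR transcripts with no named organelle. The GO term chloroplast was carried by 6 members. Zinc ion binding, a term that fits the DYW domain of many editing PPR proteins, was carried by 24 members (17.4%), against 5.18%. Its share was higher in PPR transcripts with no named organelle (28.9%) and in chloroplast ones (26.7%). FPKM was higher in Ant for 88 of 109 members with 1 exon and for 16 of 29 with more. Length did not separate the directions, as 52 of 69 members of at least 1800 nt and 52 of 69 shorter ones were higher in Ant. Members were spread over all 10 chromosomes, between 2 on A04 and 21 on A09, and per 1000 reference transcripts A10 held most, with 6.63, and A04 fewest, with 0.833.

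The reference transcript was not the main product at every locus. A total of 21 assembled transcripts of class j (sharing a splice junction with the reference), o (another overlap) or e (a single-exon overlap) lay over 19 members, all on the same strand as the member. In Ant 16 of them had higher FPKM than the member, and in Mix 14 did. FPKM was higher in Ant for 17 of the 21, against 59.1% of all reference transcripts. A log2 ratio above 2 was found for 5 of the 21, against 21.2% of expressed reference transcripts, so this count was near the background. The shares over all assembled transcripts of these classes were not taken. With 16 the only reference transcript overlapped was the member, whereas 5 also overlapped a neighbouring gene, so their reads cannot be assigned to the PPR gene alone.

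The extreme case was BraA09g063180.3C (At1g07590), whose reference transcript was close to 0 at 0.005 FPKM in Ant and 0.008 in Mix. The class j transcript MSTRG.27965.1 over the same gene had 193 FPKM in Ant and 9.68 in Mix (19.9-fold), and its level in Ant was above that of every reference member. It ran from 43664989 to 43668781 on A09 with 3 exons and extended beyond the reference gene, which covers 43666749 to 43668781. At BraA08g029630.3C (At3g24000), MSTRG.23317.2 had 47.1 FPKM in Ant and 2.06 in Mix, whereas its sister isoform MSTRG.23317.1 had 7.64 in Ant and 11.3 in Mix, the opposite order. Both isoforms ended at 20337889, whereas the reference transcript, with 12 exons, runs to 20341309. Isoforms assigned to 1 gene thus differed in direction, and whether they encode the PPR protein was not tested.

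MSTRG.18755.1, over BraA07g003450.3C (At2g17525), had 29.9 FPKM in Ant and 0.458 in Mix, 65.4-fold, while the member had 23 counts in Ant and 4 in Mix. MSTRG.214.1, over BraA01g002690.3C (At4g35850), had 20.9 FPKM in Ant and 3.55 in Mix, while the member had 0.598 in Ant and 0.416 in Mix. At ABO5, MSTRG.13798.1 had 1.77 FPKM in Ant and 1.09 in Mix, so the gene was measured in anthers although its reference transcript was listed at 0. At POCO1, MSTRG.16231.1 had 0.979 FPKM in Ant against 2.02 in Mix, a log2 ratio of -0.61 and the reverse of its reference transcript. With both transcripts summed, POCO1 had 4.92 FPKM in Ant and 2.79 in Mix, a log2 ratio of 0.64. At BraA09g060600.3C, MSTRG.27783.1 had 791 counts in Ant and 0 in Mix, the same direction as the member. With the class j, o and e transcripts of the same gene name added to the members, a comparison also chosen after the values were seen, summed FPKM was 616 in Ant and 180 in Mix, and 7 members had a log2 ratio above 2. No share over all genes summed in this way was taken. Summed FPKM over all reference transcripts was also higher in Ant, as given above. MSTRG.27965.1 alone gave 193 of the 616 FPKM in Ant. BraA03g044600.3C, at 2.09, passed the cutoff only with MSTRG.9249.2, which also overlaps a neighbouring gene. The sum changed the value of 17 genes, and 6 of these moved from a negative to a positive log2 ratio. Coding potential of these assembled transcripts was not assessed here.

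**Figure D5:**
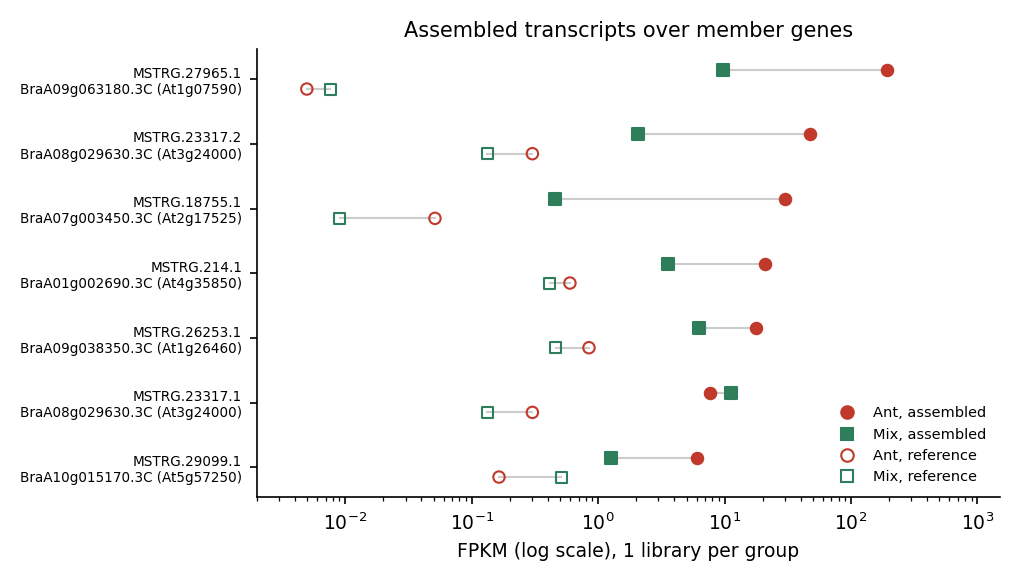
FPKM on a log scale (x axis) of the 7 assembled transcripts with at least 5 FPKM in Ant that lay over a member gene (filled) and of the member's reference transcript (open), with Ant as circles and Mix as squares. MSTRG.27965.1 lies at 193 FPKM in Ant and 9.68 in Mix, whereas its reference transcript lies at 0.005 in Ant and 0.008 in Mix.

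None of the 168 circRNAs was hosted by a member (0 of 168) or by any other PPR gene. The circRNA table listed only circRNAs with at least 1 junction read, so other circRNAs of these genes may lie below detection.

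Other factors of organelle RNA metabolism, selected by description, were as a whole more evenly split between the libraries than the members. FPKM was higher in Ant for 21 of 40 such transcripts (52.5%), against 75.4% of the members and 59.1% of all reference transcripts. Their median log2 ratio was 0.15 over the 28 expressed ones. The list holds chloroplast proteins too. The multiple organellar RNA editing factors, small proteins that bind PPR editing factors, had higher FPKM in Ant for 5 of 15 and a median of -0.29 over 10, chloroplast proteins included. The 11 described as mitochondrial had higher FPKM in Ant for 4 and a median of 0.05 over the 6 expressed ones, and the 4 described as chloroplastic only had a median of -1.36. The mTERF proteins, helical-repeat proteins of organelle gene expression, had higher FPKM in Ant for 10 of 16, chloroplast proteins included. Most of those described as mitochondrial were higher in Ant, as most members were. Those described as chloroplastic only went both ways. All 4 transcripts described as organelle RNA polymerases or their sigma factor were higher in Ant. Of these, BraA07g034020.3C, described as the mitochondrial RNA polymerase, had 1.80 FPKM in Ant and 0.569 in Mix. BraA07g030500.3C, described as similar to it, had 0.522 FPKM in Ant and 0.387 in Mix, below the median transcript.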

How the data were processed

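Total RNA, depleted of ribosomal RNA, was sequenced in 1 library each of Ant and Mix. The authors trimmed reads with Cutadapt, used Bowtie2 and TopHat2 to map them to Brassica rapa v3.0 and assembled transcripts with StringTie; the labels also name HISAT2. The deposited FPKM of each transcript was used as given, although the study names both Ballgown and Cuffdiff as its source. The estimated counts, deposited as whole numbers, followed FPKM multiplied by length, and 1 was worth less than 1 read, so the floor was set at 6 after the values were seen. The deposited circRNA counts were back-spliced junction reads. The strand setting of the quantification is not given in the sources used here, so overlapping transcripts are uncertain.

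Ratios used a pseudocount of 1 FPKM, a minimum of 1 FPKM in either library and a cutoff of 2, with Python 3.11.15, pandas 2.3.3, numpy 2.4.6, scipy 1.17.1 and matplotlib 3.10.9. The scripts were tested on simulated data. No p-value was computed, since each group had 1 library, and values compare these libraries only. Members and lists were chosen with earlier results of these data known. Named members were the 10 highest and 10 lowest log2 ratios among expressed members, the 5 highest FPKM in each library, the 5 nearest to the median transcript at FPKM of at least 5 in both, the members of the role lists, and copies whose log2 ratios differed by over 2; others are said to be chosen after their values were seen, as are transcripts at member genes. PCR reads are not independent molecules, so intervals and floors cover counting error only. Promoter motifs were not analysed here. Root-marker descriptions (casparian strip, root cap, nicotianamine) had lower FPKM in Ant for 24 of 29 transcripts, and rubisco small chains for 5 of 5. Mitochondrial CRM-domain or CRS2-associated factors had higher FPKM in Ant for 2 of 4, the 1 mitochondrial DEAD-box helicase was lower, and 0 maturases were found.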

Additional observations from a re-analysis of the deposited data

How the results depend on the processing

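As reported, 3 of 59 members were higher in Ant, against 21.2% of expressed reference transcripts. None were lower (0 of 59), against 9.48%, and the median log2 ratio was 0.70. Apart from the cutoff of 1 and the plain ratio, counts at the other settings have no share over all reference transcripts beside them. They describe the members only. With a pseudocount of 0.1 FPKM, 12 members were higher and 2 lower with a median of 1.11, and with 0.01 FPKM, 16 were higher and 2 lower with a median of 1.17. Without the FPKM minimum the median was 0.26. When both libraries had to reach 1 FPKM, 0 of 28 members were higher, and with at least 5 in either the median was 1.11. Under the scalings, centring on the median transcript gave 1 higher, 2 lower and a median of 0.17, totals without the A06 window gave 2 lower and a median of 0.23, and rescaling to the same sum gave 1 higher and a median of 0.094. Adding class j isoforms gave 5 higher, and adding class j, o and e transcripts, chosen after seeing the data, gave 7. With members taken by the GO term mitochondrion, 4 of 147 were higher and 2 lower. A cutoff of 1 gave 18 higher (30.5%, against 41.0% of reference transcripts) and 2 lower (3.39%, against 21.7%). The plain ratio, also chosen after seeing the data, gave 29 higher (22.3%, against 24.3%) and 5 lower (3.85%, against 14.8%). The median stayed positive under every alternative run. Of the 39 named members, the sign of the log2 ratio changed for 9 under centring, 8 without the A06 window, 8 at the same sum, 1 with class j isoforms added (ABO5) and 0 under the other pseudocounts. No paired analysis was possible because each group held 1 library, and for the same reason no replicate could be left out.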

Other observations

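The KEGG labels of PPR transcripts stood apart from their descriptions. Of the 138 mitochondrial PPR members, 30 (21.7%) carried the pathway starch and sucrose metabolism, each through the entry for alpha-amylase, an enzyme that PPR proteins do not resemble. Over all reference transcripts, 147 of the 183 with the alpha-amylase entry (80.3%) and 148 of the 1036 in the pathway (14.3%) were described as PPR. The labelled members had a median of 0.323 FPKM in Ant and 0.156 in Mix, below the 0.73 in Ant and 0.39 in Mix of all members. FPKM was higher in Ant for 24 of the 30, and 0 of the 7 that reached 1 FPKM in Ant or Mix had a log2 ratio above 2. Over the 541 transcripts of the pathway that reached 1 FPKM in Ant or Mix, 35 of them PPR, the median log2 ratio was 0.47, and it was 0.47 without the PPR transcripts. Above the floor in both libraries, the median plain ratio was 1.23-fold with the PPR transcripts and 1.03-fold without them. A further 9 members carried pyrimidine metabolism.

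The mitochondrial DEAD-box helicase BraA08g030790.3C, whose gene number falls between the PPR members BraA08g030780.3C and BraA08g030810.3C on A08, had 2.17 FPKM in Ant and 7.82 in Mix, a log2 ratio of -1.48. Its neighbours had log2 ratios of 0.99 for BraA08g030780.3C and -0.55 for BraA08g030810.3C, both annotated as At3g22470.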
